A study of Homo sapiens with 3 samples.

Results

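The mucin genes asked for in a genome-wide CRISPR screen were MUC16, MUC1, MUC2, MUC4, MUC5B, MUC6, MUC7, MUC13, MUC15 and MUC17. They were chosen by the counts of RSL-3 survivors, in which a single sgRNA of MUC16 was the most abundant outside DHCR7, so the MUC16 values in that library are a description of the choice and nothing is supported with them. Of the 10 genes, 9 were read here with 6 sgRNAs each, 54 sgRNAs in all, out of 111626 sgRNAs for 18992 genes. MUC13 was not analysed here.

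The cells were Huh-7, an established human hepatocellular carcinoma line, and every culture carried Cas9 and the GeCKOv2 sgRNA library, introduced by lentivirus at a target MOI of 0.3 and kept by puromycin selection. One library came from untreated cells of this pool, another from cells that survived repeated exposure to 0.1 µM RSL-3 for 24 h, and the last from cells that survived 0.03 µM RSL-3 given with linoleic acid (LA, 50 mM) over the same time. RSL-3 blocks GPX4, the enzyme that detoxifies lipid peroxides, and LA is a polyunsaturated fatty acid that feeds lipid peroxidation. The 2 survivor cultures therefore differed in the RSL-3 dose as well as in LA, and the effects of these cannot be told apart. The methods and the legends differ on how many rounds of selection each culture went through. Since each condition was represented by 1 library, differences were not checked by replicates and not tested. Intervals are exact 95% intervals for counting error only, and treat reads as independent. PCR reads are not independent molecules, so the intervals can be too narrow even for counting error.

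Mucins are large glycoproteins whose long repeat regions carry dense chains of O-linked sugars. Transmembrane mucins such as MUC16, MUC1, MUC4, MUC15 and MUC17 stand on the apical face of epithelial cells, where they shield the surface and can be shed. Secreted gel-forming mucins such as MUC2, MUC5B and MUC6 polymerise into mucus, whereas MUC7 is a small secreted mucin of saliva. In ovarian cancer the shed part of MUC16 is the tumour marker CA125. The screen counts integrated sgRNA cassettes in genomic DNA, so whether Huh-7 cells express these mucins was not measured, nor whether any sgRNA cut its gene.

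The libraries held 1466896 counts before selection, 1467705 after RSL-3 and 1485991 after RSL-3/LA. At least 1 count was found for 19153 of 119461 sgRNAs before selection (16.0%), for 2938 after RSL-3 and for 4970 after RSL-3/LA. A count of 0 is compatible with shares below 0.000205%, 0.000204% and 0.000202% of these libraries, respectively, taking 3 counts as the limit. CPM stands for counts scaled to a library total of 1000000.

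MUC16 was represented after selection by 1 of its 6 sgRNAs. HGLibB_30486 was counted 2 times before selection, 155878 times after RSL-3 and 71 times after RSL-3/LA. Its level was thus 1.36 CPM in the untreated pool, 106205 CPM with RSL-3 and 47.8 CPM with RSL-3/LA. A second sgRNA of the same gene, HGLibB_30488, was counted 87 times before selection and was at 0 after either treatment. The other 4 sgRNAs, HGLibA_30528, HGLibA_30529, HGLibA_30530 and HGLibB_30487, had 0 counts in every library. The sgRNA that was high after RSL-3 was therefore the rarer of the 2 seen before it, and HGLibB_30488 had 43.5 times as many untreated counts.

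**Figure D1:**
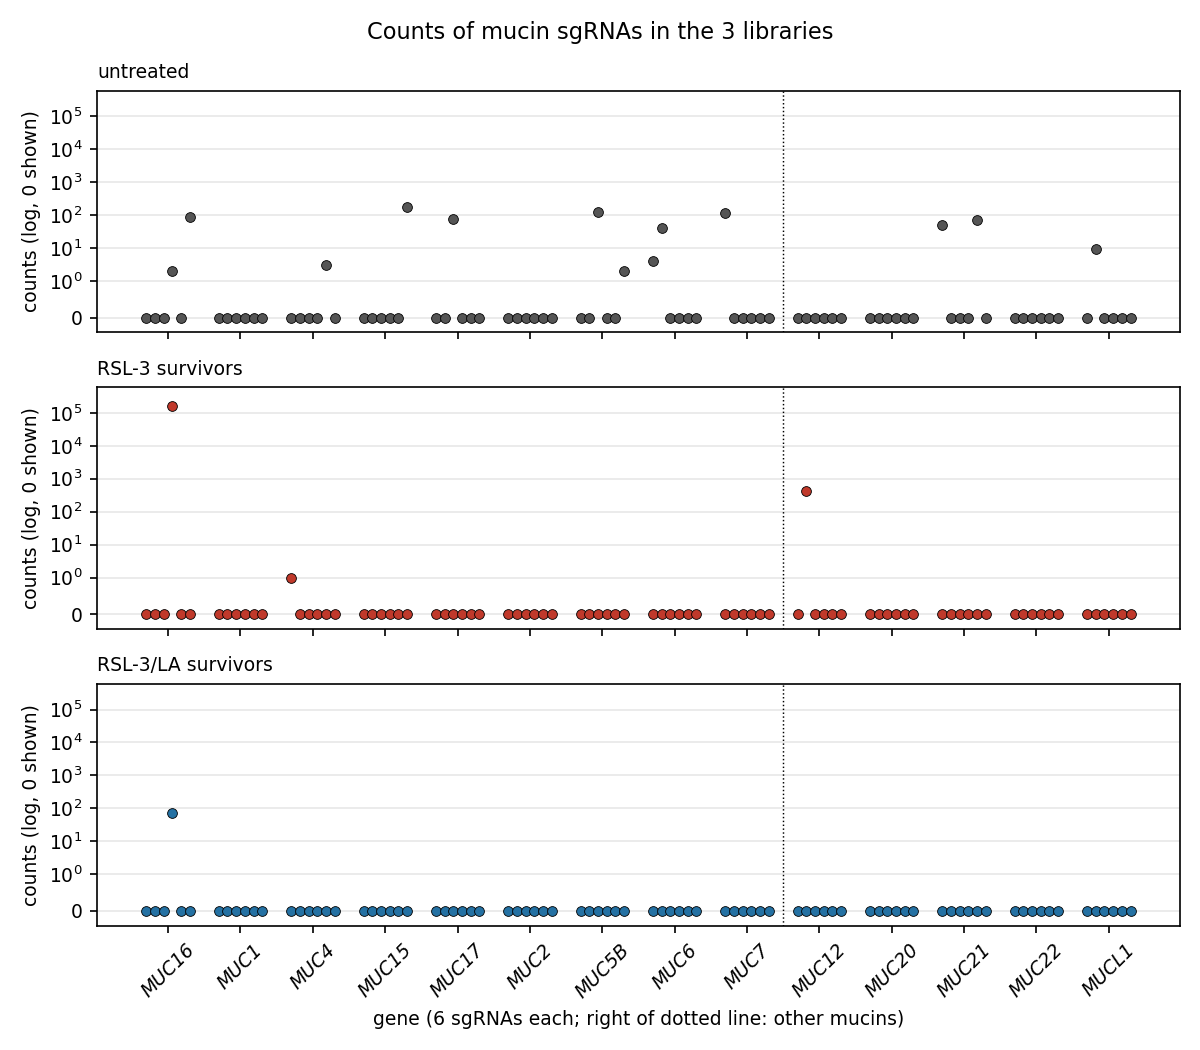
Counts of each mucin sgRNA in untreated cells, RSL-3 survivors and RSL-3/LA survivors, on a log axis on which 0 is shown. Each point is 1 of the 6 sgRNAs of a gene, in the same order in the 3 panels, and genes right of the dotted line are mucins outside the 10 that were asked for. MUC16 has 1 sgRNA at 155878 counts in RSL-3 survivors, MUC12 has 1 at 432, and all other mucin sgRNAs there are at 0 or 1.

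As a ratio of CPM, HGLibB_30486 stood 77896-fold over untreated cells in RSL-3 survivors (95% interval 21563 to 643218) and 35.0-fold in RSL-3/LA survivors (9.35 to 295). Both intervals are wide because they rest on 2 untreated counts. The RSL-3 ratio was 118520 when DHCR7 sgRNAs were left out of the totals, 219821 without the 10 most abundant sgRNAs of each library and 112043 when scaled to non-targeting sgRNAs, and the last scaling gave 20.1 for RSL-3/LA. Of the sgRNAs detected in untreated cells, 88.4% had more than 2 counts. HGLibB_30488 was at least 29.0-fold lower after RSL-3 and at least 29.4-fold lower after RSL-3/LA, against the limit of 3 counts. The 2 detected sgRNAs of MUC16 thus moved in opposite directions in either survivor library. The rise after RSL-3 is the value that chose the genes, and the rise after RSL-3/LA rests on 2 and 71 counts. Whether these 71 counts came from cells of the RSL-3/LA culture was not tested. Loss was the state of 96.1% of sgRNAs with 10 or more untreated counts after RSL-3 and of 93.7% after RSL-3/LA.

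Summed over its sgRNAs, MUC16 held 89 counts in untreated cells, or 0.00607% (0.00487 to 0.00747), 10.6% of RSL-3 survivors (10.6 to 10.7) and 0.00478% of RSL-3/LA survivors (0.00373 to 0.00603). The summed ratio of CPM was 1750 after RSL-3 (1422 to 2180) and 0.788 after RSL-3/LA (0.568 to 1.09). The interval of the latter includes 1. For RSL-3/LA the sum over sgRNAs and the leading sgRNA therefore gave different answers, since 87 of the 89 untreated counts belonged to the sgRNA that was at 0 afterwards. Without HGLibB_30486 the MUC16 share was 0 in both survivor libraries, which the interval bounds at 0.000251% and 0.000248%. Among 21815 targets, MUC16 ranked 6771 by its share before selection, 2 after RSL-3 and 2299 after RSL-3/LA.

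Between the survivor libraries HGLibB_30486 was 2223-fold higher after RSL-3 alone (1762 to 2846). A call of enrichment required 100 CPM after selection and a ratio of 10 or more to the untreated level, with untreated counts below 3 raised to 3. By this rule HGLibB_30486 was enriched after RSL-3 but not after RSL-3/LA, where its level was below 100 CPM. At a threshold of 30 CPM it was called in both.

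Among the 10 most abundant sgRNAs of RSL-3 survivors HGLibB_30486 was the third. The sgRNA just above it, HGLibA_13095 of DHCR7, the last enzyme of cholesterol synthesis, had 216198 counts, and the one just below it, HGLibA_20506 of GSTZ1, an isomerase of tyrosine breakdown, had 116136. DHCR7 was the only one of the 9 genes in this group with a second sgRNA above 1 count in RSL-3 survivors. For MUC16, GSTZ1, FRG1, HYOU1, FAM102A, COQ6 and ITSN1 the other 5 sgRNAs were all at 0 there, and for MALSU1 they summed to 1. Besides DHCR7, MUC16 and MALSU1 were the genes of the group with further sgRNAs in untreated cells, at 87 and 149 summed counts.

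**Figure D2:**
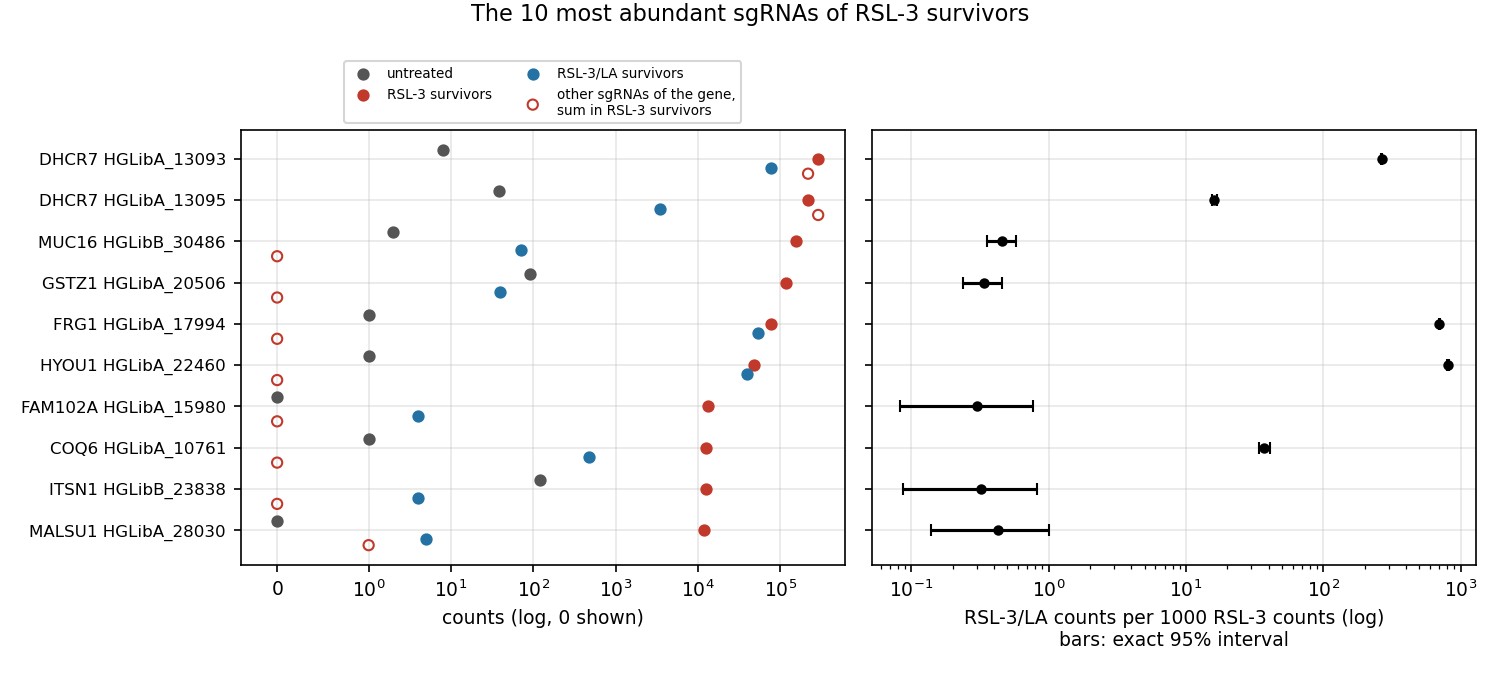
The 10 most abundant sgRNAs of RSL-3 survivors. Left, counts of each sgRNA in the 3 libraries (filled points) and summed counts of the other sgRNAs of the same gene in RSL-3 survivors (open points), on a log axis on which 0 is shown. Right, RSL-3/LA counts per 1000 RSL-3 counts of the same sgRNA on a log axis, with exact 95% intervals. MUC16 lies at 0.455 per 1000, near GSTZ1, FAM102A, ITSN1 and MALSU1, and its other sgRNAs sum to 0.

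The 71 counts of HGLibB_30486 in RSL-3/LA survivors amount to 0.455 per 1000 of its RSL-3 counts (0.356 to 0.575). The sgRNAs of GSTZ1, FAM102A, ITSN1 and MALSU1 lay at 0.336 (0.239 to 0.459), 0.302 (0.0822 to 0.773), 0.321 (0.0874 to 0.822) and 0.429 (0.139 to 1.0), and their intervals overlap that of MUC16. The remaining 5 of the 10 lay at 16.1 or more per 1000, up to 808 for HYOU1. MUC16 therefore lay among the 5 with under 1 RSL-3/LA count per 1000 RSL-3 counts, a group formed after the values were seen. The sgRNAs of FAM102A, ITSN1 and MALSU1 had only 4, 4 and 5 RSL-3/LA counts. Overlap of such wide intervals does not show that the fractions are alike. Whether the 71 counts of HGLibB_30486 came from cells of the RSL-3/LA culture or from reads of the other library was not tested.

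The same question was asked of all genes with an enriched sgRNA. In RSL-3 survivors 57 of 463 such genes (12.3%) had at least 1 count for another of their sgRNAs, and 2.74% of the 2263 other sgRNAs had a count, beside 2.46% of all sgRNAs. MUC16 was among the genes whose other sgRNAs had none. Of the 463 genes, 211 (45.6%) had another sgRNA with 10 or more untreated counts and 0 in RSL-3 survivors, as MUC16 did. Over the whole library 14465 of 119461 sgRNAs were in this state, and no share over all genes stands beside the 45.6%. A silent or lost second sgRNA beside a leading one was thus common. Nothing particular to genes with an enriched sgRNA is read from it.

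By summed counts over the 3 libraries the profile most like that of MUC16 was that of GSTZ1, at a Euclidean distance of 0.489 in log2(CPM + 1). GSTZ1 had 92 counts before selection, 116136 after RSL-3 and 60 after RSL-3/LA. The next were KDM4D (distance 4.28), MALSU1 (4.6), FAM184A (4.96) and POR (5.0), so GSTZ1 stood close and the others far. The distance includes the RSL-3 value that chose MUC16, and GSTZ1 had the next most abundant sgRNA of that library. With only 3 libraries this likeness is a description. It also hides a difference, because all 92 untreated counts of GSTZ1 came from the sgRNA that was abundant later, whereas 87 of the 89 of MUC16 came from the one that was lost.

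None of the other 8 mucins had an sgRNA above 1 count after selection. Their 48 sgRNAs held 547 counts before selection, 1 count after RSL-3 and 0 after RSL-3/LA. Among all sgRNAs of the library, 2.46% had a count after RSL-3 and 4.16% after RSL-3/LA. In RSL-3 survivors 1 of the 54 sgRNAs was enriched, the MUC16 sgRNA that led to the choice of genes, beside 0.419% of all sgRNAs. In RSL-3/LA survivors none of the 54 was enriched, beside 1.20% of all sgRNAs, a share below 1 in 54, so the absence of a call says little about mucins.

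**Figure D3:**
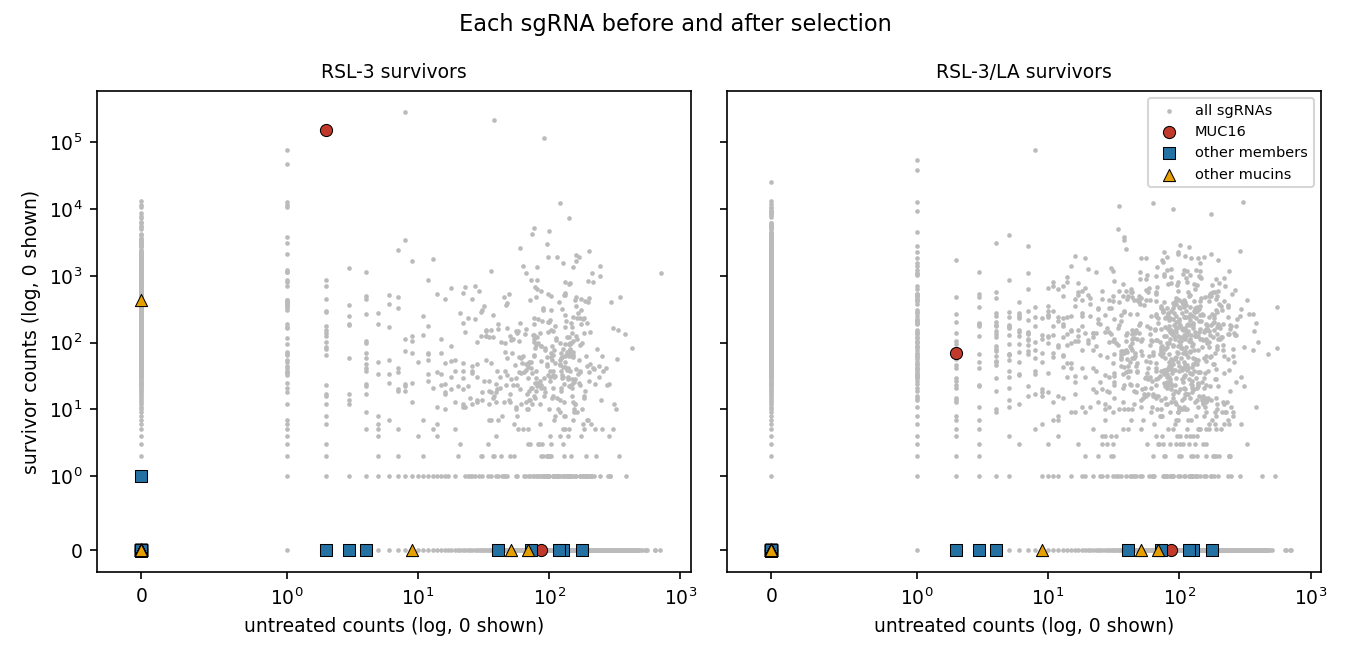
Counts of each sgRNA in untreated cells (horizontal) and in survivors (vertical), on log axes on which 0 is shown, for RSL-3 (left) and RSL-3/LA (right). Grey points are all sgRNAs of the library, and coloured symbols are the sgRNAs of MUC16, of the other 8 genes and of 5 other mucins. The mucin sgRNAs lie on the line of 0 survivor counts, except 1 of MUC16 in both panels and 1 each of MUC4 and MUC12 at 1 and 432 counts in the left panel.

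Among the transmembrane mucins, MUC15 had the most abundant mucin sgRNA of untreated cells, HGLibB_30485, with 178 counts. It had 0 in both survivor libraries and was at least 59.4-fold lower after RSL-3 and at least 60.1-fold lower after RSL-3/LA. MUC17, a membrane mucin of the small intestine, had 73 counts in HGLibA_30533 and 0 in both survivor libraries, at least 24.3-fold and 24.7-fold lower. MUC4, which binds the receptor ERBB2, had 3 counts in HGLibB_30505 before selection and 0 afterwards. Another MUC4 sgRNA, HGLibA_30546, went from 0 untreated counts to 1 count after RSL-3 and 0 after RSL-3/LA, too few to tell from 0. MUC1, the most widely expressed membrane mucin, had 0 counts for all 6 sgRNAs in every library, so nothing can be said of it. Together, the 5 transmembrane mucins had 5 of 30 sgRNAs detected in untreated cells, and their only sgRNA above 1 count after selection was that of MUC16.

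Among the gel-forming mucins, MUC5B, a major mucin of the airways, had 127 counts in HGLibA_30551 and 2 in HGLibB_30509. Both were at 0 in the survivor libraries, and HGLibA_30551 was at least 42.4-fold lower after RSL-3 and at least 42.9-fold lower after RSL-3/LA. MUC6, a mucin of the stomach, had 41 counts in HGLibA_30553 and 4 in HGLibA_30552, again with 0 in both survivor libraries. HGLibA_30553 was at least 13.7-fold lower after RSL-3 and at least 13.8-fold lower after RSL-3/LA. MUC2, the mucin of the colonic mucus layer, had 0 counts for all 6 sgRNAs in every library, as MUC1 did. The secreted MUC7 had 119 counts in HGLibA_30555 and 0 afterwards, at least 39.7-fold and 40.2-fold lower. No gel-forming or secreted mucin therefore had a count in survivors of either treatment. Of all sgRNAs only 2.46% had a count after RSL-3 and 4.16% after RSL-3/LA, so this absence says little about secreted mucins.

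Loss was the usual outcome for mucin sgRNAs, as for the library as a whole. An sgRNA was called lost when it had 10 or more untreated counts and 0 in survivors. All 6 mucin sgRNAs with 10 or more untreated counts were lost in both survivor libraries, 1 each of MUC16, MUC15, MUC17, MUC5B, MUC6 and MUC7. Of all 15047 sgRNAs at that level, 96.1% were lost after RSL-3 and 93.7% after RSL-3/LA. Within the range of 41 to 178 untreated counts spanned by the mucin sgRNAs, a range set after the values were seen, 96.2% of 9812 sgRNAs were at 0 in RSL-3 survivors, 94.0% in RSL-3/LA survivors and 91.1% in both. A mucin sgRNA at 0 after selection was therefore in the usual state of an sgRNA of the pool.

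The median log2 ratio of CPM + 1 over the 10 mucin sgRNAs detected in untreated cells was -5.26 in both survivor libraries. Over all detected sgRNAs it was -5.34 after RSL-3 and -5.27 after RSL-3/LA, as nearly all of these sgRNAs were at 0 after selection. The medians therefore mirror the untreated counts, with a median of 57 for the detected mucin sgRNAs and 62 for all, and carry no information on the response to selection.

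The coverage of the mucins before selection lay near that of the library. In untreated cells 10 of 54 sgRNAs had a count (18.5%), beside 16.0% of all sgRNAs. None was detected for 2 of the 9 genes, 1 for 4 genes and 2 for 3 genes. Of the 18040 genes with 6 sgRNAs, 36.1% had none detected, 39.6% had 1 and 18.7% had 2. The sgRNA names divide the library into the sub-libraries A and B, with 27 mucin sgRNAs in each, and 5 of each were detected in untreated cells. Over the 3 libraries together 43 of the 54 mucin sgRNAs (79.6%) were never seen, beside 79.4% of all sgRNAs. Most sgRNAs of each mucin thus gave no information on whether loss of the gene protects cells.

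Mucins outside the 10 genes added a single sgRNA. Of MUC12, MUC20, MUC21, MUC22 and MUCL1, which have 30 sgRNAs, MUC12 had 1 enriched sgRNA in RSL-3 survivors (3.33% of the 30, beside 0.419% of all sgRNAs). HGLibA_30523 went from 0 untreated counts to 432 after RSL-3, at least 144-fold when 3 untreated counts are taken as the limit, and was at 0 after RSL-3/LA. The other 5 sgRNAs of MUC12, a membrane mucin, were at 0 in every library. MUC17, the next protein-coding gene in the GRCh38.p14 gene order, had no count after selection. MUC21 had 51 and 69 untreated counts in HGLibA_30540 and HGLibB_30499, both lost in both survivor libraries, and the small mucin-like MUCL1 had 9 in HGLibA_30559 and 0 afterwards. MUC20, which neighbours MUC4, and MUC22, which neighbours MUC21, had no count at all.

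Enzymes that build the O-linked sugars of mucins gave no enriched sgRNA in either survivor library, beside 0.419% of all sgRNAs after RSL-3 and 1.20% after RSL-3/LA. This list held 30 genes and 177 sgRNAs, among them the GALNT family, which adds the first sugar, and C1GALT1 and its chaperone C1GALT1C1, which make the core. Of its sgRNAs 35 were detected in untreated cells (19.8%), and 29 had 10 or more counts. In RSL-3 survivors all 29 were lost, beside 96.1% of all such sgRNAs, and in RSL-3/LA survivors 27 were (93.1%), beside 93.7%. The 2 of the 29 not lost after RSL-3/LA, named after their values were seen, belonged to GALNT5 and GALNT16. That of GALNT5 had 366 untreated and 267 RSL-3/LA counts (ratio of CPM 0.720, 0.613 to 0.845), and that of GALNT16 127 and 58 (0.451, 0.325 to 0.620). At 30 CPM the list had 2 enriched sgRNAs after RSL-3 and 1 after RSL-3/LA. No share of all sgRNAs at 30 CPM stands beside these calls, so nothing is read from them. The highest count of the list in RSL-3 survivors was 117, for an sgRNA of the sialyltransferase ST3GAL1 with 0 untreated counts, below 100 CPM and likewise named after its value was seen.

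Binding partners of mucins and genes of mucus secretion were set beside them in the same way. Of 8 binding partners, among them mesothelin (MSLN), which binds MUC16, and the receptors EGFR, ERBB2 and ERBB3, none had a count in RSL-3 survivors. Only 2.46% of all sgRNAs had a count there. Before selection 6 of the 48 sgRNAs of this list were detected (12.5%, beside 16.0% of all), so the absence says little about binding partners. In RSL-3/LA survivors 1 of their 48 sgRNAs was enriched, HGLibB_26325 of LGALS3, a galectin that binds mucin sugars, with 478 counts against 0 in untreated cells and in RSL-3 survivors, which is at least 157-fold higher. Of 11 genes of mucus secretion and gel formation, none had an enriched sgRNA in RSL-3 survivors, where 0.419% of all sgRNAs, a share below 1 in 66, were called. In RSL-3/LA survivors 1 of their 66 sgRNAs was, HGLibA_17813 of FOXA3, a transcription factor of liver and goblet cells, with 164 counts against 0 in the other 2 libraries, which is at least 54.0-fold higher. The other sgRNAs of LGALS3 and FOXA3 had 0 counts in every library. Neither gene therefore had a second sgRNA to compare, and the calls of 1 in 48 and 1 in 66 stand beside 1.20% of all sgRNAs. Of the binding partners, 3 sgRNAs had 10 or more untreated counts, and all were lost in both survivor libraries. Of the mucus genes 5 did, of which 3 were lost after RSL-3 (60.0%, beside 96.1% of all) and 4 after RSL-3/LA (80.0%, beside 93.7%). Those kept, named after their values were seen, were sgRNAs of ERN2, a stress sensor of the endoplasmic reticulum in mucous cells, and of the trefoil peptides TFF2 and TFF1, which are secreted with mucins. The ERN2 sgRNA had 160 untreated counts, 124 after RSL-3 (ratio of CPM 0.775, 0.608 to 0.985) and 0 after RSL-3/LA. That of TFF2 had 185, 5 (0.027, 0.00867 to 0.0642) and 0, and that of TFF1 58, 0 and 42 (0.715, 0.469 to 1.08). The shares rest on 5 sgRNAs, so nothing particular to the list is read from them.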

How the data were processed

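Genomic DNA of untreated, RSL-3-surviving and RSL-3/LA-surviving Huh-7 cells (1 library each) was the source of sgRNA cassettes amplified by PCR and sequenced on a MiSeq. The authors deposited the counts per sgRNA, made with MAGeCK and not normalized, in a pair of tables. Trimming and matching settings were not given in the sources used here. The untreated library was identical in both tables and was used as 1 library. The authors' deposited MAGeCK scores, p-values, false discovery rates and ranks per target are their own comparison and were not used.

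CPM were computed over all 119461 sgRNAs, at 1466896 to 1485991 counts per library. Intervals of shares are exact (Clopper-Pearson) at 95%, and those of ratios were derived from the binomial proportion of survivor reads among both libraries. A call of enrichment required 100 CPM and a fold of 10 over the higher of the untreated CPM and that of 3 counts, and a call of loss 10 or more untreated counts and 0 afterwards. The calling function was tested on simulated data. The sgRNAs given a change there started from more untreated counts than the called sgRNAs of MUC16, MUC12, LGALS3 and FOXA3 had. A loss of most of the pool was not simulated, so the simulation does not bear on calls from so few counts. The genes, lists and rules were chosen with earlier results of these data known. Named are the 10 genes asked for, other mucins with a call or at least 10 counts, list members with an enriched sgRNA, the 5 targets nearest to MUC16 and the 10 most abundant sgRNAs of RSL-3 survivors. Further genes were named after their values were seen. Every list symbol was in the library except MUC13. Gene order is that of the RefSeq table for GRCh38.p14, and sgRNA sequences were not used here. Alternatives changed the scaling, thresholds, floor, pseudocount, filters and denominators. Python 3.11.15 with numpy 2.4.6, pandas 2.3.3, scipy 1.17.1 and matplotlib 3.10.9 was used.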

Additional observations from a re-analysis of the deposited data

How the results depend on the processing

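With all genes whose symbol starts with MUC, the enriched mucin sgRNAs of RSL-3 survivors numbered 2 instead of 1, through MUC12, and the number was 1 under all 9 other alternatives. In RSL-3/LA survivors it was 0 except at 30 CPM, where it was 1. The MUC16 share of RSL-3 survivors was 10.6%, and 16.2% without DHCR7 sgRNAs, 23.5% without the 10 most abundant other sgRNAs and 14.3% over sgRNAs with an untreated count. That of RSL-3/LA survivors was 0.0139% over sgRNAs with an untreated count, and without the leading sgRNA both shares were 0. Lost mucin sgRNAs numbered 6 in both, and stayed within 1.5 times that under each alternative. The median log2 ratio of detected mucin sgRNAs was -6.24 at a pseudocount of 0.5 CPM, -3.09 at 5 CPM, -6.14 over sgRNAs with 10 or more untreated counts and 0 over all sgRNAs, in both survivor libraries alike. With 10 or more counts required, 6 mucin sgRNAs were detected in untreated cells instead of 10. These shifts follow from the changed denominator, pseudocount or filter itself. For the other gene lists, alternatives added later gave O-glycosylation enzymes up to 2 enriched sgRNAs after RSL-3 and, at 30 CPM, 1 after RSL-3/LA, where mucus secretion genes had 2, and the calls of MUC12, LGALS3 and FOXA3 ended at 1000 CPM or with an untreated count required, that of FOXA3 also with scaling to non-targeting sgRNAs. The calls under changed thresholds or scalings have no share of all sgRNAs beside them, so nothing particular to the mucins or the lists is read from them. No paired analysis was possible because the treatments have a single library each, and for this reason none could be left out. Depth limits all values of sgRNAs with few untreated counts, such as the 2 of the leading MUC16 sgRNA.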
